A study of Mus musculus with 24 samples.

Results

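The genes of mitochondrial ribosomal proteins, whose symbols begin with Mrpl (large subunit) or Mrps (small subunit), were followed in purified mouse β cells. All protein-coding genes of the count table with a symbol made of Mrpl or Mrps and a number were taken, which gave 77 of 33619 genes. Of these, 50 encode proteins of the large subunit, including Mrps18a and Mrps30 despite their symbols, and 26 encode proteins of the small subunit. The remaining gene, Mrps36, encodes a component of the 2-oxoglutarate dehydrogenase complex and is no part of the ribosome.

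CD1 females about 7 weeks of age ate a high-fat diet (HFD), a low-protein diet (LPD) or the control diet (ND) for 2 weeks and were then paired with males carrying Ins1Apple, an allele that labels β cells with a red fluorescent protein. From birth on all animals ate the control diet. Apple-positive cells of dispersed islets were sorted at about 7 weeks of age, so that the offspring of every group carried Ins1Apple and differed in the diet of the mother and in sex. RNA was depleted of ribosomal RNA and sequenced in 6 groups of 4 libraries: HFD males, HFD females, LPD males, LPD females, ND males and ND females.

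Mitochondria translate the few proteins encoded in their own genome, all of them subunits of the respiratory chain and of ATP synthase, on a ribosome of their own. Its RNAs come from mitochondrial DNA, whereas all of its proteins are encoded in the nucleus, made in the cytosol and imported. Some of these proteins have bacterial counterparts and others occur only in mitochondria. In β cells, ATP made by the respiratory chain closes the potassium channels that hold insulin secretion back.

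The libraries held 12433228 to 26375565 counts, and all 77 genes passed the filter on low counts, as 19235 genes did in all. Minimum RNA integrity is given in the labels as 9.4 in one place and 8.1 in another. Litters, dams and batches are not named, so p-values cover only the spread between these samples. In sorted cells measured in bulk, fewer cells that express a gene and less RNA per cell cannot be told apart. Diet and sex follow the column names of the count table, which match the Xist and Y-linked counts of all 24 libraries. A line of library numbers above the names would give all 24 columns another diet and 8 of them the other sex, and diet cannot be checked from the counts. With groups taken from those numbers, the median log2 fold change of HFD against ND in males over the genes described here was -0.23, against 0.30 by column names. By those numbers this comparison sets the LPD columns against the HFD columns. Insulin genes Ins1 and Ins2 took 7.65% to 27.5% of counts. The summed level of 8 hepatocyte markers was 59.1 to 110 CPM (counts scaled to a common library total) in HFD males, 117 to 196 CPM in HFD females and 0.546 to 3.54 CPM in the other 16 libraries. Acinar markers summed to 62.6 to 683 CPM and markers of α cells to 94.97 to 931 CPM, while summed ductal, endothelial, immune and stromal markers stayed at or below 9.65 CPM.

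The 4 HFD female libraries stood apart. They had 13225 to 19404 genes with at least 1 count, against 19160 to 25830 in the other 20 libraries. Among the mitochondrial ribosomal protein genes the median coefficient of variation over 4 libraries was 43.6% in HFD females and 10.3% to 16.8% in the other groups. A wide spread was also present in all 7083 genes with a mean of 5 to 50 CPM, with a median of 35.6% in HFD females and 8.49% to 16.6% elsewhere. The standard deviation of the 77 log2 ratios to each gene's median was 1.07, 0.34, 0.62 and 1.51 in HFD females 1 to 4 and 0.13 to 0.30 in the other libraries. All 9 counts of 0 fell in this group: Mrps16 and Mrps33 in HFD female 1, and Mrpl39, Mrpl43, Mrps18b, Mrps25, Mrps27, Mrps31 and Mrps36 in HFD female 4. Within these libraries, 3 counts corresponded to 0.127 to 0.241 CPM. Every comparison that touches HFD females was therefore also run on the compared groups alone, and those that do not were also run without them.

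**Figure D1:**
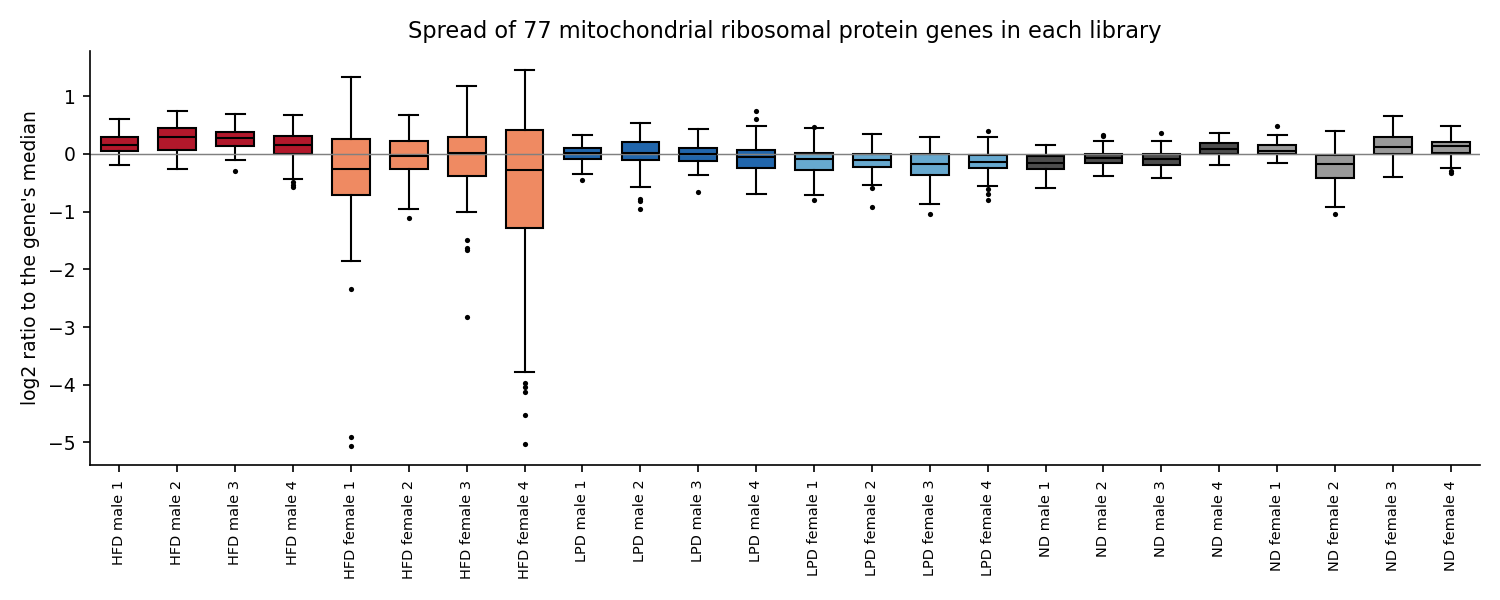
Spread of the 77 genes in each library. The x axis gives the library and the y axis the log2 ratio of each gene's CPM plus 0.5 to its median over all 24 libraries, with boxes from the lower to the upper quartile, a line at the median and dots for genes beyond the whiskers. HFD females 1 and 4, with standard deviations of 1.07 and 1.51, show by far the widest boxes and whiskers.

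Promoters of these genes were read first, since their products share a function. RefSeq promoter windows (GRCm38.p6, 250 bases before to 50 bases after the start) were at hand for 68 of the 77 genes, with 74 windows in all. Letters of 3 motifs often found in promoters of nuclear genes for mitochondria were searched on both strands. The NRF1 letters GCGCANGCG stood in 21.6% of the 74 windows, against 6.25% of all 32851 windows and 11.8% of the 15080 windows of genes tested here. The ETS letters CCGGAAG stood in 33.8%, against 8.86% and 15.8%. The YY1 letters AAGATGGC stood in 16.2%, against 2.75% and 4.05%. At least 1 of these 3 was present in 58.1% of the windows, against 16% of all windows and 27.8% of those of tested genes. Other letters were at shares nearer to those of tested genes: GGGCGG (SP1) in 52.7% against 58.3%, CCAAT in 39.2% against 37.5%, CACGTG (E-box) in 9.46% against 9.35%, and TGACGTCA (CRE) in 2.7% against 2.96%. A match is a description of letters and not a bound site.

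The 200 bases just before the RefSeq start are printed for 6 genes on which the comparisons turn. NRF1 or ETS letters are in capitals, read 5′ to 3′ on the strand of the gene. Mrpl57 (chr14:57826039-57826238, plus strand) and Mrpl44 (chr1:79775818-79776017, plus strand) carry the NRF1 letters, Mrpl51 (chr6:125192000-125192199, plus strand) and Mrps18a (chr17:46110804-46111003, plus strand) the ETS letters, and Mrpl50 (chr4:49521084-49521283, minus strand) and Mrps25 (chr6:92184024-92184223, minus strand) neither of the pair in this stretch.
Mrpl57: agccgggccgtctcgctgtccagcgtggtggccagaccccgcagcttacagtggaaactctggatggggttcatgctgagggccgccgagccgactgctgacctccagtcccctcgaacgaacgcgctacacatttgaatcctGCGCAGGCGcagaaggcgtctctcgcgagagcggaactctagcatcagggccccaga
Mrpl44: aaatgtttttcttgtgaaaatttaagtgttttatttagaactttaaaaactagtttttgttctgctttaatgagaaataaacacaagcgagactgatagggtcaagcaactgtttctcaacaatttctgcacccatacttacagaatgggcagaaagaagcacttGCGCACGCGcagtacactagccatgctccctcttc
Mrpl51: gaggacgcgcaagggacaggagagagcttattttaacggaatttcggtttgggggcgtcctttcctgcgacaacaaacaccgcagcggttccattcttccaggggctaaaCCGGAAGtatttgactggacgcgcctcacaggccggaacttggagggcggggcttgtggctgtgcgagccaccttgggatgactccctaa
Mrps18a: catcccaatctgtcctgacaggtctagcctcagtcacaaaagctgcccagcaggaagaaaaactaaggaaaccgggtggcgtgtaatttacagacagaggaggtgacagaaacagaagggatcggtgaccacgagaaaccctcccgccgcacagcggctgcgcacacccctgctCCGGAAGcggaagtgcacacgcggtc
Mrpl50: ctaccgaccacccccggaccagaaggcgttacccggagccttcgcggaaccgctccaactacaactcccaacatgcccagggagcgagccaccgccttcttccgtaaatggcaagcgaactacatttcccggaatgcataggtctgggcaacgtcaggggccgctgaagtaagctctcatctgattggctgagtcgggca
Mrps25: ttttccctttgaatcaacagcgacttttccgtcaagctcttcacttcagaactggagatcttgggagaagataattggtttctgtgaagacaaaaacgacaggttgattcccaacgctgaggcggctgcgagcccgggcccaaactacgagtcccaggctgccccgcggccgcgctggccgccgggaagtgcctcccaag

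Levels differed widely between genes. FPKM, which are counts scaled to gene length and library size, were used to rank genes, and the ranking depends on the gene length in the deposited table. Mrpl17, with a length of 7605 bases, averaged 5.37 FPKM, and Mrps21, with 739 bases, 40.0 FPKM. In ND males their mean CPM were 36.4 and 28.7. Whether the lengths match the transcripts made in these cells was not tested. Mrps21, a small-subunit protein with a bacterial counterpart, had the highest mean FPKM over the 24 libraries at 40.0, and Mrps12, a protein of the decoding centre, came next at 33.3. In the large subunit Mrpl54 was highest at 23.8 FPKM, followed by Mrpl34 at 19.9 FPKM. Mrpl28 and Mrpl10, a protein of the stalk that recruits translation factors, both averaged 19.2 FPKM. The lowest were Mrps30 at 0.997 FPKM in the large subunit and Mrps25 at 1.22 FPKM in the small subunit. The libraries of Mrps21 ranged over 26.7 to 63.1 FPKM and those of Mrps12 over 21.8 to 46.1 FPKM, so that these neighbours overlapped. Mrps30 at 0.621 to 1.51 FPKM and Mrps25 at 0 to 1.91 FPKM overlapped as well.

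**Figure D2:**
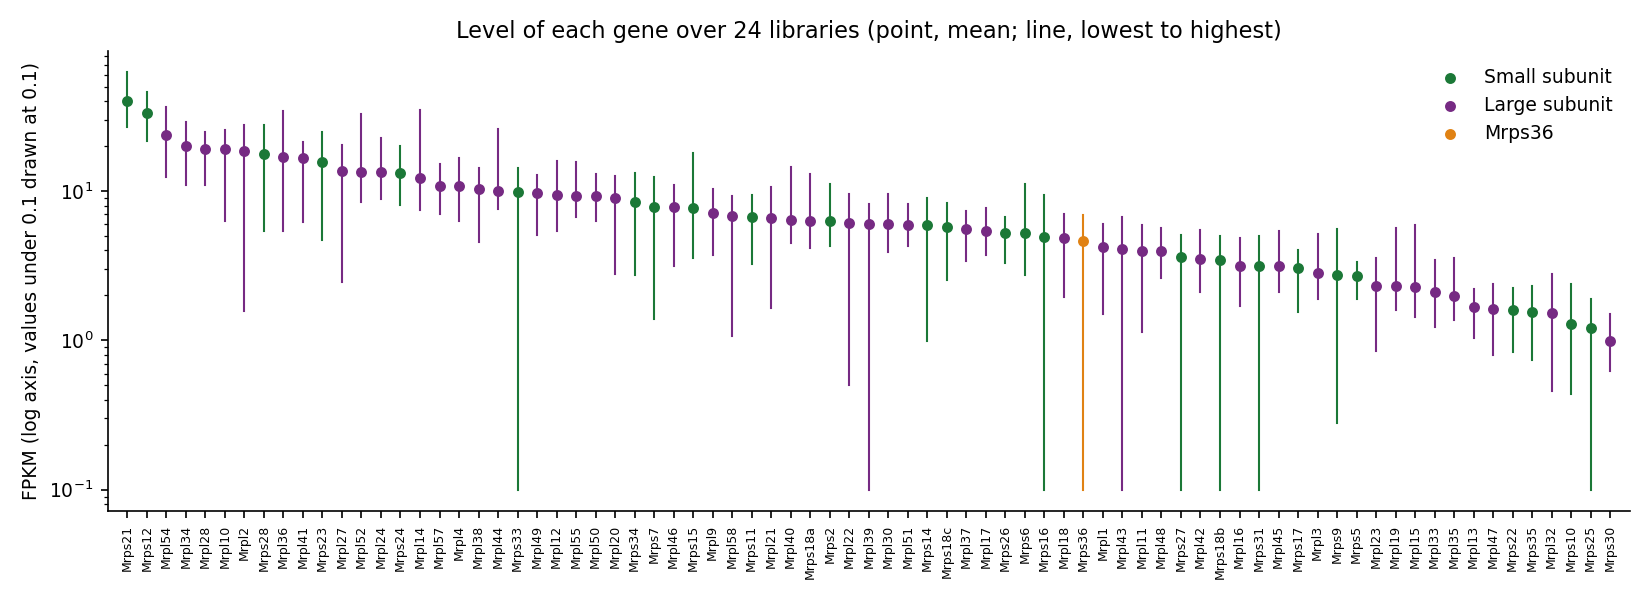
Level of each of the 77 genes. The y axis gives FPKM on a log axis (values under 0.1 are drawn at 0.1), points are means over 24 libraries and lines run from the lowest to the highest library. Levels run from 40.0 FPKM for Mrps21 to 0.997 FPKM for Mrps30, and the long lines that reach 0.1 belong to genes with a count of 0 in an HFD female library.

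The summed level gave a first view by group. Together the 77 genes took 1414 ± 48.3 CPM in HFD males and 1174 ± 46.9 CPM in ND males (SD, n = 4 each), and the libraries did not overlap, at 1352 to 1467 and 1125 to 1234 CPM. LPD males, at 1221 ± 26.4 CPM, overlapped ND males. In females the order differed: HFD females had 1284 ± 39.0, LPD females 1165 ± 41.9 and ND females 1349 ± 120 CPM. The large subunit contributed 947 ± 29.9 CPM in HFD males and 781 ± 36.9 CPM in ND males, the small subunit 460 ± 18.9 and 387 ± 10.1 CPM. The HFD female sum lay within a narrow range, 1227 to 1314 CPM, although single genes scattered widely in the same libraries. These sums are shares of each library and carry no test.

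**Figure D3:**
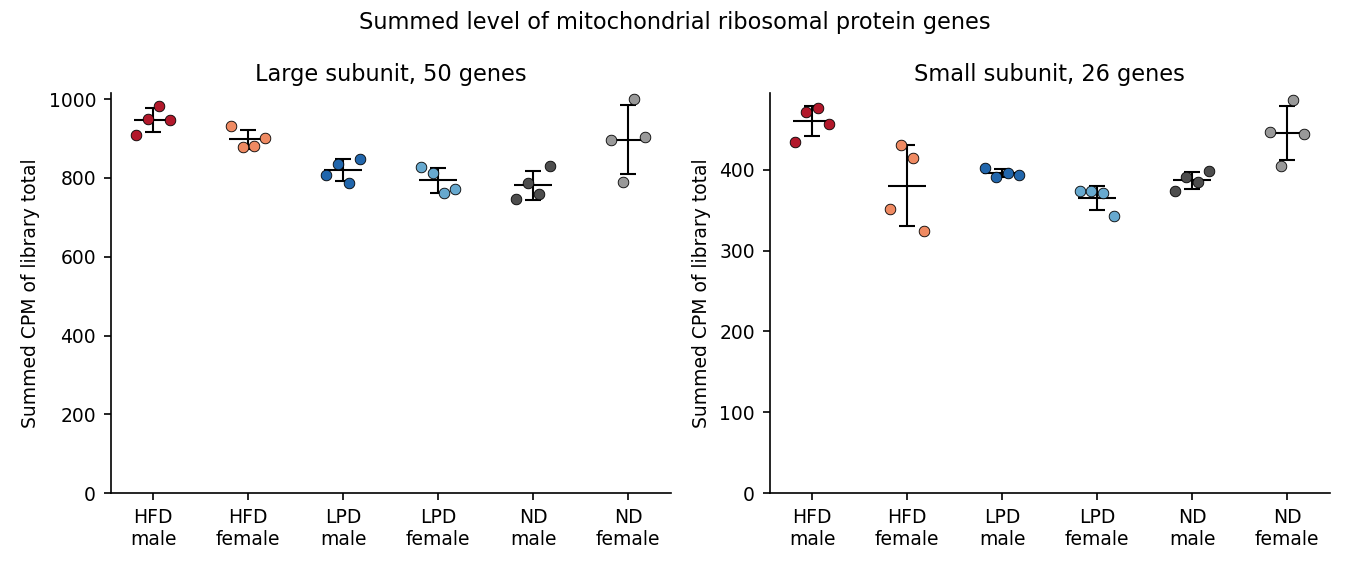
Summed level of the 50 large-subunit and 26 small-subunit genes. The y axis gives the sum in CPM of the library total, points are libraries, and bars show mean and SD of 4. HFD male libraries sit at 910 to 983 CPM for the large subunit and 435 to 477 CPM for the small subunit, above the ND male libraries at 746 to 830 and 374 to 398 CPM.

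HFD was compared with ND in males to ask what a maternal high-fat diet changed in sons. Here 73 of the 77 genes had a log2 fold change above 0, with a median of 0.30, while the median over all 19235 genes was 0.00. Yet 1 gene passed the test (edgeR quasi-likelihood F test on all 24 libraries, Benjamini-Hochberg adjusted p under 0.05, here "called"), where 0.577% of all genes were called higher. At an unadjusted p under 0.05 there were 10, where 9.52% of all genes were. The fold changes ran from -0.16 for Mrps6 to 0.73 for Mrps18c, both small-subunit genes, with medians of 0.33 in the large and 0.22 in the small subunit. On the same strand, exons of Mrps6 overlap those of Gm49711 and Slc5a3 by up to 305 bases. Exons of Mrps18c overlap those of Gm43511 by 250 bases, also on the same strand, so both counts are uncertain. Genes with bacterial counterparts (median 0.31) and genes found only in mitochondria (0.29) were alike in size.

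Mrpl50, a large-subunit protein found only in mitochondria (ENSMUSG00000044018.3, chromosome 4, 49512596 to 49521093, GRCm38), was the gene called. It had 22.3, 26.9, 27.2 and 21.4 CPM after TMM scaling in HFD males, against 15.9, 17.2, 13.8 and 17.1 CPM in ND males. Each HFD male library lay above each ND male library. The log2 fold change was 0.61 ± 0.15 (SE, edgeR adjusted p = 0.0334). The call was lost, at adjusted p = 0.0501 to 0.196, when any of HFD males 2 and 3, ND males 1 to 4 or LPD females 2 and 3 was left out. It held without the 4 HFD females (adjusted p = 0.00195). The printed stretch before the Mrpl50 start held neither the NRF1 nor the ETS letters, and the gene Zfp189 starts 83 bases away on the opposite strand.

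The number of calls in males differed between fits. In a fit of the 4 HFD and 4 ND male libraries alone, 28 of the 77 genes were called higher and 0 lower, where 7.36% of all genes were called higher and 7.18% lower. Of these 28, 19 encode large-subunit and 9 small-subunit proteins. With all but the HFD females, 11 genes were called higher, where 2.82% of all genes were. With quality weights per library (voom, limma), 40 were called higher, where 10.7% of all genes were. DESeq2 called 2, where 6.02% of all genes with an adjusted p were called in either direction. By ranges alone, 25 genes had every HFD male library above every ND male library, where 8.05% of all genes did. None of the 77 had every HFD male library below, where 9.66% of all genes did. The 25 included 19 of the 28 genes called in the fit of males alone.

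Genes called in that fit, which were chosen for display after their values were seen, came from both subunits. Mrps24, a small-subunit protein with a bacterial counterpart, had 23.2, 31.6, 28.4 and 30.2 CPM in HFD males, against 17.2, 17.3, 17.4 and 20.5 CPM in ND males. The libraries did not overlap, with a log2 fold change of 0.66 in the fit of males alone (edgeR adjusted p = 0.000952) and 0.65 ± 0.21 over all 24 libraries (adjusted p = 0.14). Exons of Mrps24 share 226 bases with Urgcp on the same strand, so this count is uncertain. Mrps14, another small-subunit protein with a bacterial counterpart, had 26.2, 31.6, 30.9 and 25.6 CPM in HFD males, against 15.8, 17.7, 16.4 and 23.1 CPM in ND males. Its HFD libraries again lay above all ND libraries, although ND male 4 came close (0.66, edgeR adjusted p = 0.00229 in males alone). Mrpl52, a large-subunit protein found only in mitochondria, had 16.02, 20.6, 21.8 and 22.7 CPM in HFD males, against 13.5, 14.6, 14.3 and 14.4 CPM in ND males (0.52, edgeR adjusted p = 0.00704 in males alone).

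Genes named for their roles showed how unequal the difference was. The stalk gene Mrpl10 had 35.1, 45.7, 46.2 and 43.3 CPM in HFD males, against 28.9, 32.0, 32.4 and 33.9 CPM in ND males, with no overlap (0.42 ± 0.23 over all libraries, edgeR adjusted p = 0.646, and 0.43 in males alone, adjusted p = 0.00736). Mrpl12, also of the stalk, had 15.5 to 18.4 CPM in HFD males and 12.99 to 15.1 CPM in ND males, which did not overlap either, yet was not called in any of the 3 fits (adjusted p = 0.0775 to 0.93). Mrpl11, which lies at the base of the stalk, overlapped at 11.4 to 17.1 and 10.9 to 13.8 CPM. Mrpl58, a peptidyl-tRNA hydrolase built into the large subunit, had 23.7 to 31.8 CPM in HFD males and 18.6 to 25.03 CPM in ND males and was called in males alone (0.39, adjusted p = 0.0338). Mrps12 of the decoding centre overlapped, at 38.1 to 41.9 CPM in HFD males and 32.2 to 38.8 CPM in ND males. Mrps36, which is no ribosomal protein, also overlapped, at 3.796 to 9.50 and 5.06 to 7.72 CPM.

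In these males the hepatocyte markers were between 59.1 and 110 CPM with HFD and between 1.43 and 2.09 CPM with ND, with 8 of 8 and 2 of 8 markers above 0. The defining markers Cps1, Cyp2e1, Fga, Fgb, Mug1 and Serpina3k were at 0 in all ND males. Insulin transcripts took 20.5% to 27.5% of counts in HFD males and 15.7% to 18.2% in ND males. The part of either in the difference of the ribosomal protein genes was not tested.

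HFD was compared with ND in females to ask the same of daughters, and here the picture differed. Of the 77 genes, 28 had a log2 fold change above 0, with a median of -0.14, against -0.09 over all genes. Mrps18a was called higher, where 1.98% of all genes were. Mrpl51, Mrps34, Mrps25 and Mrpl48 were called lower, where 7.35% of all genes were, and 14 genes had an unadjusted p under 0.05, where 22% of all genes did. These 5 calls come from the fit over all 24 libraries, in which all groups share an estimate of the spread of each gene. Here and below, SE and p-values from this fit for HFD females thus draw on the other groups as well, whose spread was smaller. In a fit of the 8 female libraries alone 0 of the 77 genes were called, where 0.16% of all genes were called in either direction. Quality weights gave 0, where 0.489% of all genes were called, and DESeq2 on all libraries 7, where 13.3% were.

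Mrpl51, a large-subunit protein found only in mitochondria (ENSMUSG00000030335.6, chromosome 6, 125191801 to 125196269), had 17.9, 19.3, 16.8 and 17.3 CPM in HFD females, against 25.7, 21.3, 30.8 and 30.5 CPM in ND females. All 4 HFD libraries were lower than all ND libraries, and they varied little (-0.60 ± 0.14, edgeR adjusted p = 0.00686, and 0.429 in females alone). Mrps34, a small-subunit protein found only in mitochondria (ENSMUSG00000038880.13, chromosome 17, 24895116 to 24897502), had 13.5, 12.9, 5.50 and 10.6 CPM in HFD females, against 18.8, 18.2, 21.6 and 21.7 CPM in ND females. The groups did not overlap, and HFD female 3 was lowest (-0.92 ± 0.24, edgeR adjusted p = 0.0147, and 0.455 in females alone). Its exons share 1309 bases with Mapk8ip3 on the opposite strand and 763 bases with Nme3 on the same strand, and the strand setting of the counting is not given in the sources used here, so this count is uncertain.

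Mrps25, also of the small subunit and found only in mitochondria (ENSMUSG00000014551.8, chromosome 6, 92169525 to 92184033), had 2.40, 4.02, 6.89 and 0 CPM in HFD females, against 9.08, 10.8, 11.3 and 10.2 CPM in ND females. It was lower in each HFD library, and its log2 fold change of -1.61 ± 0.51 (edgeR adjusted p = 0.0442) was lost at adjusted p = 0.0506 to 0.0931 when any of 19 libraries was left out. Those were all libraries but HFD females 2, 3 and 4 and LPD males 2 and 4. Its exons overlap those of Nr2c2 on the opposite strand by 4590 bases, so that its count is uncertain too. Mrpl48, of the large subunit, had 28.3, 33.8, 25.03 and 19.98 CPM in HFD females, against 36.4, 31.4, 43.3 and 33.7 CPM in ND females. HFD female 2 overlapped ND, and the fold change of -0.43 ± 0.14 (edgeR adjusted p = 0.0485) was no longer called without any of 18 libraries (adjusted p = 0.0502 to 0.197). The 6 whose omission kept it were HFD females 1 and 2, LPD males 2 and 4 and ND females 2 and 4. Exons of Mrpl48 overlap those of Rab6a on the opposite strand by 708 bases, so that its count is uncertain as well.

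Mrps18a, a large-subunit protein that belongs to a family of 3 related genes with Mrps18b and Mrps18c (ENSMUSG00000023967.9, chromosome 17, 46110986 to 46128910), was the gene called higher. It had 37.6, 25.9, 25.5 and 45.0 CPM in HFD females, against 22.4, 15.5, 19.8 and 26.3 CPM in ND females. HFD females 1 and 4, the libraries with the fewest genes, were highest, and HFD females 2 and 3 overlapped ND. The fold change of 0.67 ± 0.18 (edgeR adjusted p = 0.0202) was not called without HFD female 4 (0.0706), ND female 2 (0.0913) or ND female 3 (0.0613). In females alone it was at adjusted p = 0.542.

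By ranges, 1 gene had every HFD female library above every ND female library, Mrpl44, where 1.89% of all genes did, and 4 had every one below, where 9.33% did. Mrpl44, a protein of the large subunit with a fold related to RNase III (ENSMUSG00000026248.9, chromosome 1, 79776018 to 79781445), had 38.6, 18.9, 17.3 and 18.02 CPM in HFD females, against 14.9, 14.9, 15.6 and 16.8 CPM in ND females. HFD female 1 was far above the others, and the difference was not called (0.57 ± 0.20, edgeR adjusted p = 0.0803). The 4 genes below were Mrpl39, Mrpl51, Mrps25 and Mrps34. Mrpl39 had 14.2, 15.4, 14.2 and 0 CPM in HFD females and 16.8 to 18.9 CPM in ND females (-0.70 ± 0.49, edgeR adjusted p = 0.431). Hepatocyte markers in these groups were at 117 to 196 CPM in HFD females and 1.15 to 1.97 CPM in ND females, and their part in these differences was not tested.

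Without HFD females 1 and 4 together, 6 genes were called lower in HFD females and 0 higher, and 3 of the 5 genes named above were among them. Leaving out HFD female 2, the library nearest to the other groups in the number of genes detected, raised the number to 14. It was 8 without HFD female 1, 10 without HFD female 3, 2 without ND female 3 and 3 without any of the libraries of HFD males, ND males, LPD females, ND females 1 and 2 or LPD males 1 and 3. Here and below, counts without single libraries or without HFD females 1 and 4 stand without the share of all genes called. They are not read as a result about the ribosomal protein genes.

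Whether HFD acted differently in sons and daughters was tested as the difference of both effects, males minus females. The difference was above 0 for 63 of the 77 genes, with a median of 0.43, against 0.10 over all genes. It was called for 4 genes, all more positive in males, where 3% of all genes were called higher. These were Mrpl51 (0.85 ± 0.20, edgeR adjusted p = 0.0162), Mrpl48 (0.73 ± 0.20, 0.0338), Mrpl50 (0.76 ± 0.21, 0.0382) and Mrps34 (1.21 ± 0.34, 0.0421), all found only in mitochondria. In the fit of the 16 HFD and ND libraries, 1 of the 77 genes was called, Mrpl51 (adjusted p = 0.0223), where 2.63% of all genes were. With quality weights 0 were called, where 0.109% of all genes were.

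All 4 genes had an effect above 0 in males and below 0 in females, and none was called in both sexes. In males the effects of Mrpl51 (0.25, edgeR adjusted p = 0.661), Mrpl48 (0.30, 0.461) and Mrps34 (0.29, 0.957) were not called. In females that of Mrpl50 was not (-0.15, edgeR adjusted p = 0.599). Mrpl51 had 29.0, 30.5, 28.6 and 24.6 CPM in HFD males, against 23.3, 22.99, 24.2 and 24.2 CPM in ND males, so that HFD was above ND in each male library and below it in each female library. Mrpl48 had 35.6, 42.6, 38.2 and 35.3 CPM in HFD males, against 27.0, 31.6, 29.9 and 34.5 CPM in ND males, again without overlap. Mrps34 overlapped in males, with 17.2 to 28.7 CPM in the HFD group and 14.8 to 22.8 CPM in the ND group. Mrpl50 overlapped in females, at 24.9, 18.3, 17.1 and 17.6 CPM in HFD females, against 20.5, 19.4, 24.5 and 22.03 CPM in ND females, where HFD female 1 was highest of all 8. Mrpl48, Mrpl50 and Mrps34 were not called when any of HFD males 2 and 3, ND females 1 and 3 or ND males 1 to 3 was left out (adjusted p = 0.0567 to 0.103), and the number called was then 1. It was 2 without LPD female 2 or LPD male 1. For Mrpl50 this also held without ND male 4, LPD female 2 or LPD male 1, and for Mrps34 without HFD male 4, ND females 2 and 4, LPD females 2 to 4 or LPD male 1 (adjusted p = 0.05 to 0.0667). Without HFD females 2 or 3 the number called rose to 7 and 9.

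Over the 77 genes, 27 were higher with HFD in both sexes, 46 higher in males and lower in females, 1 lower in males and higher in females (Mrps6) and 3 lower in both. The HFD female libraries, whose spread was wide, enter every one of the female values.

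**Figure D4:**
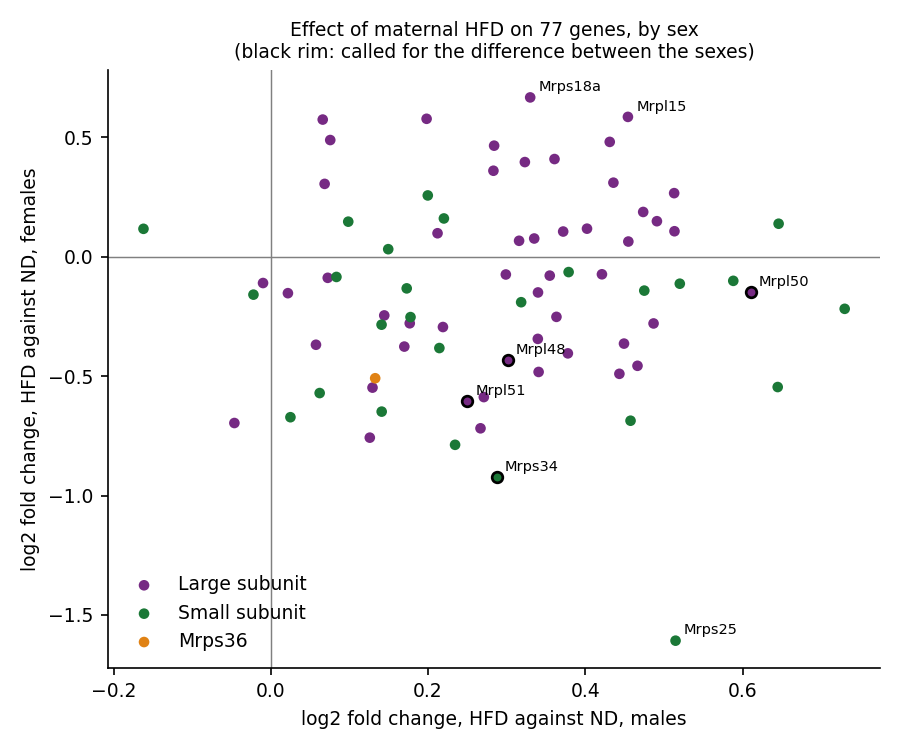
Effect of maternal HFD on the 77 genes. Each point is a gene, with the log2 fold change of HFD against ND in males on the x axis and in females on the y axis, whose scales differ, and a black rim marks the 4 genes called for the difference between the sexes. Of the points, 73 lie right of 0, whereas 28 lie above 0 on the y axis, and Mrps25 at -1.61 lies lowest.

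Averaged over both sexes, HFD exceeded ND in 3 genes, where 1.67% of all genes were called higher: Mrps18a (0.50 ± 0.13, edgeR adjusted p = 0.0169), Mrpl15 (0.52 ± 0.15, 0.0294) and Mrpl57 (0.37 ± 0.11, 0.0390). The median over the 77 genes was 0.06, against -0.06 over all genes, and turned to -0.01 on the scale of log2 FPKM plus 0.1. Mrpl15, a large-subunit protein with a bacterial counterpart (ENSMUSG00000033845.13, chromosome 1, 4773206 to 4785739), had 23.3, 18.5, 25.6 and 21.5 CPM in HFD males, against 15.1, 15.9, 15.9 and 17.998 CPM in ND males. In HFD females it had 45.7, 24.3, 23.9 and 17.7 CPM, against 15.9, 18.2, 20.9 and 19.3 CPM in ND females. HFD was higher in every male library, while HFD female 4 fell among the ND females. Mrpl57, a small protein of the large subunit found only in mitochondria (ENSMUSG00000021967.4, chromosome 14, 57826234 to 57829296), had 33.9, 42.5, 40.4 and 46.5 CPM in HFD males, against 28.2, 27.9, 29.8 and 34.8 CPM in ND males. In HFD females it had 40.6, 28.9, 30.5 and 41.9 CPM, against 28.3, 19.6, 31.8 and 34.5 CPM in ND females, so that groups overlapped in both sexes.

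Of these calls, Mrps18a alone was called in the fit of the 16 HFD and ND libraries (edgeR adjusted p = 0.0384). Mrpl15 was lost without HFD female 1, HFD males 1 or 3, ND females 1 or 2 or ND males 1, 2 or 3 (adjusted p = 0.0551 to 0.0740). Mrpl57 was lost without HFD females 1 or 4, HFD males 2, 3 or 4, LPD male 1, ND females 1 or 2 or ND males 1, 2 or 3 (0.0502 to 0.0984). The number of calls was then 1 without HFD male 3, ND females 1 or 2 or ND males 1, 2 or 3, and it was 6 without HFD female 2.

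**Figure D5:**
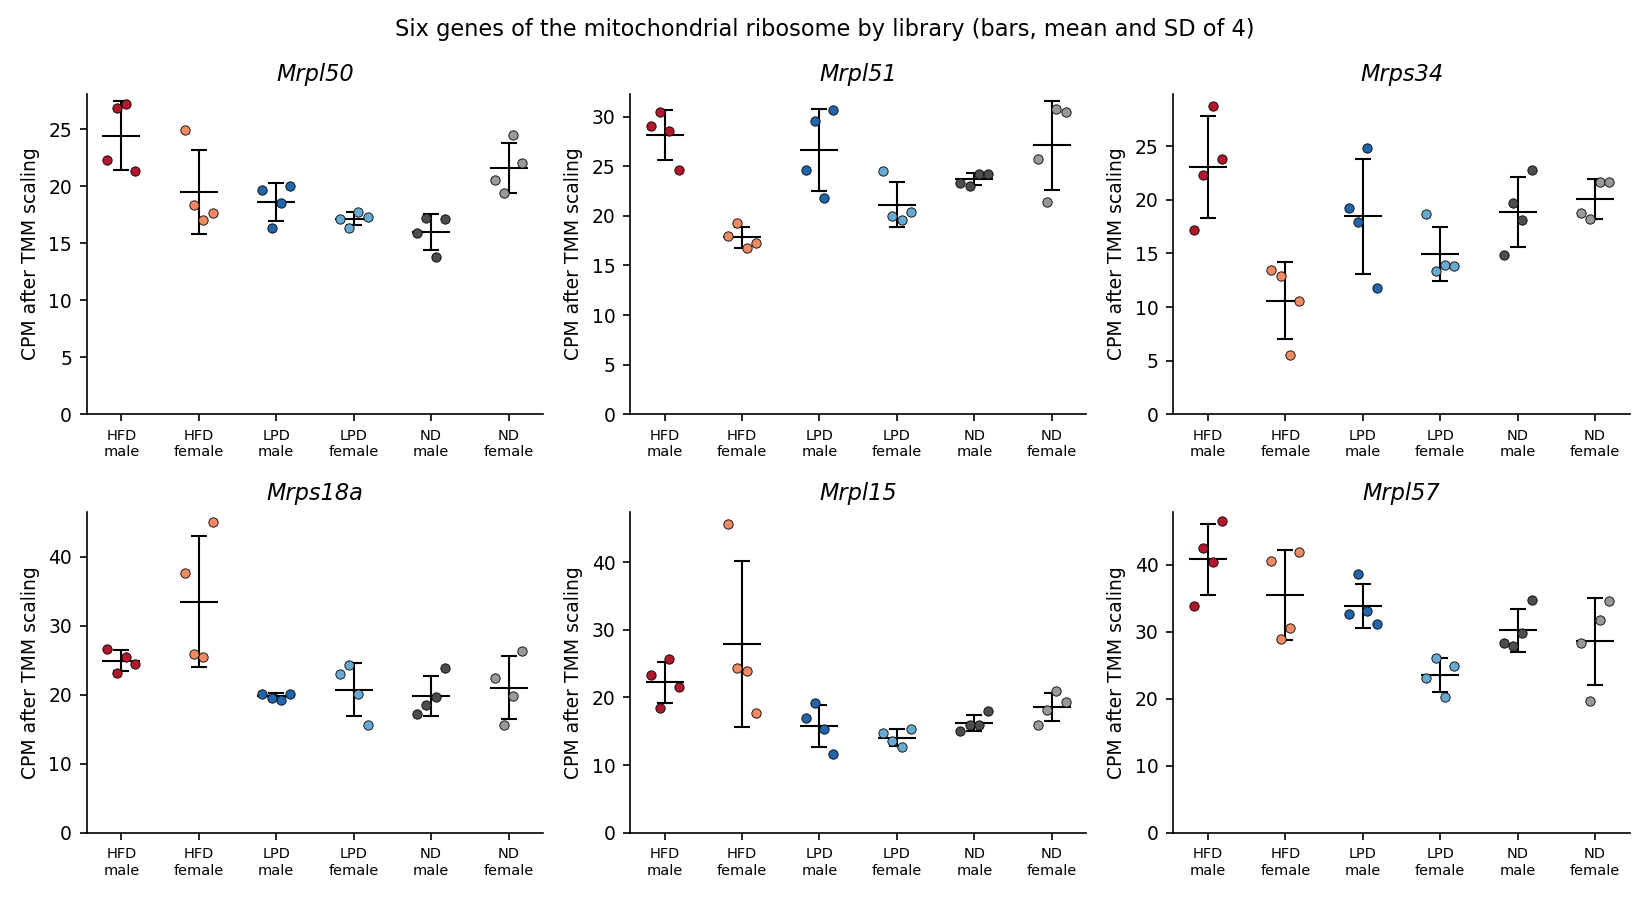
Levels of 6 genes by library. The y axis of each panel gives CPM after TMM scaling, starting at 0, points are libraries and bars show mean and SD of 4 in each of the 6 groups. Mrpl50 is higher in HFD males (21.4 to 27.2 CPM) than in ND males (13.8 to 17.2 CPM), Mrpl51 and Mrps34 are lowest in HFD females, and HFD female 1 stands far above the rest for Mrpl15 at 45.7 CPM.

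HFD was also set against LPD. Over both sexes the same 3 genes, Mrpl15 (0.74 ± 0.15, edgeR adjusted p = 0.00203), Mrps18a (0.51 ± 0.13, 0.0115) and Mrpl57 (0.43 ± 0.11, 0.0141), were called higher, where 2.38% of all genes were, and this comparison shares its HFD libraries with the one against ND. All 3 were also called in the fit of the 16 HFD and LPD libraries alone (adjusted p = 0.0152 to 0.0267). The median over the 77 genes was 0.14, against -0.05 over all genes. The number called was 9, 8, 8 and 6 without HFD females 1, 2, 3 and 4.

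In females 4 genes were called higher with HFD than with LPD, where 1.59% of all genes were. In each of them every HFD library lay above every LPD library. The share of all genes that did so is not given here, so this is not read as a result about these genes. Mrpl15 had 14.8, 13.5, 12.7 and 15.4 CPM in LPD females, all below the HFD values given above (0.99 ± 0.21, edgeR adjusted p = 0.00371). Mrps18a had 23.01, 24.3, 20.05 and 15.6 CPM in LPD females (0.69 ± 0.18, 0.0172), Mrpl57 had 23.1, 26.002, 20.3 and 24.9 CPM (0.59 ± 0.16, 0.0193), and Mrpl44 had 12.8, 14.3, 12.1 and 15.5 CPM (0.76 ± 0.21, 0.0194). The promoter stretches of Mrpl57 and Mrpl44 printed above are those with NRF1 letters. In the fit of the 8 female libraries alone 0 were called, where 0.261% of all genes were in either direction, and 15 genes had an unadjusted p under 0.05 in all libraries, where 21.3% of all genes did. Quality weights gave 0 calls, where 0.457% of all genes were called, and DESeq2 8, where 12% were. Mrpl44 was lost without HFD female 1 (0.0928) or LPD females 1 or 3, Mrpl57 without HFD female 4 or LPD female 3, and Mrps18a without HFD female 4 or LPD female 4 (0.0506 to 0.0737). The number called was 10, 13 and 10 without HFD females 1, 2 and 3 and 2 without LPD female 3. The median over the 77 genes was 0.06 and turned to -0.01 on the scale of log2 FPKM plus 1 and to -0.02 with 0.1 in place of 1.

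In males no gene was called between HFD and LPD by edgeR on all 24 libraries, where 2.41% of all genes were called in either direction, and 5 genes had an unadjusted p under 0.05, where 11.9% of all genes did. DESeq2 called 0, where it called 5.72% of all genes, and quality weights 21 higher, where 10.8% of all genes were. The log2 fold change was above 0 for 68 of the 77 genes, with a median of 0.23, against 0.02 over all genes. By ranges, 14 genes had every HFD male library above every LPD male library, where 6.09% of all genes did, and 0 had every one below, where 5.4% of all genes did. Without the HFD females 10 genes were called higher, where 3.96% of all genes were, and without HFD female 1 there was 1. Among the 10, Mrps25 had 11.6, 11.3, 13.2 and 10.4 CPM in HFD males, against 6.95, 4.003, 7.41 and 8.16 CPM in LPD males, with no overlap (0.84, edgeR adjusted p = 0.00448 without HFD females and 0.0521 in males alone). Mrps22, of the small subunit and found only in mitochondria, had 8.62, 9.71, 8.35 and 6.54 CPM in HFD males, against 5.01, 3.59, 5.18 and 6.15 CPM in LPD males (0.76, edgeR adjusted p = 0.0137 without HFD females). Mrpl27, a large-subunit protein chosen after its values were seen, was the gene called in males alone, with 15.5, 16.4, 18.2 and 19.2 CPM in HFD males, against 10.8, 13.2, 10.2 and 11.7 CPM in LPD males (0.58, edgeR adjusted p = 0.0429).

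LPD was compared with ND to ask what a maternal low-protein diet changed. In females no gene was called by edgeR, where 0.307% of all genes were called in either direction, and 4 had an unadjusted p under 0.05, where 7.58% of all genes did. DESeq2 called 1, where it called 4.41% of all genes, and quality weights 3, where 7.54% were. Fold changes leaned downwards, with 15 of 77 above 0 and a median of -0.18, against 0.00 over all genes. Every LPD female library lay below every ND female library for 9 genes, where 4.71% of all genes did so, and for 0 genes above, where 5.21% of all genes did. These 9 were Mrpl15, Mrpl24, Mrpl27, Mrpl39, Mrpl50, Mrps9, Mrps21, Mrps23 and Mrps31. The median was -0.25 in the small subunit and -0.15 in the large subunit.

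Mrps21, the gene of the highest mean FPKM (ENSMUSG00000054312.6, chromosome 3, 95862634 to 95871519), had 21.9, 23.1, 19.2 and 19.95 CPM in LPD females, against 31.9, 29.2, 43.6 and 29.2 CPM in ND females. The groups were well apart, with a log2 fold change of -0.67 ± 0.18 (edgeR adjusted p = 0.114). It passed the threshold in the fit of the 8 female libraries (0.0263), without the HFD females (0.00448) and without HFD female 1 (0.0329) or HFD female 4 (0.0345) alone. Mrpl50 had 17.1, 16.4, 17.8 and 17.3 CPM in LPD females, below the 19.4 to 24.5 CPM of ND females (-0.33 ± 0.15, edgeR adjusted p = 0.548). Mrpl15 in LPD females, at 12.7 to 15.4 CPM, lay just under the 15.9 to 20.9 CPM of ND females (-0.40 ± 0.21, edgeR adjusted p = 0.737).

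In males LPD and ND were closer. No gene was called by edgeR, where 0.187% of all genes were in either direction, and 0 had an unadjusted p under 0.05, where 5.62% of all genes did. DESeq2 called 0, where it called 1.04% of all genes, and quality weights 3, where 20.6% were. The median was 0.05. Mrpl1 and Mrpl46 had every LPD male library above every ND male library, where 4.14% of all genes did. Over both sexes edgeR called 0, where 0.832% of all genes were called in either direction, with 1 gene at an unadjusted p under 0.05 (Mrps21), where 9.31% of all genes were. DESeq2 gave 0, where 3.29% of all genes were called, and quality weights 4, where 20.2% were. For the difference of the LPD effect between males and females edgeR called 0, where 0.0052% of all genes, a single gene, were called. Here 67 of the 77 differences were above 0, with a median of 0.23, against -0.01 over all genes, and 4 had an unadjusted p under 0.05, where 4.19% of all genes did. DESeq2 called 0, where 0.461% of all genes were called, and quality weights gave 4, where 5.87% were.

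Males were set against females within each diet. With HFD, 10 genes were called higher in males and 0 lower, where 7.46% of all genes were called higher and 2.45% lower, and the median was 0.37, against 0.09 over all genes. They were Mrpl51 (0.66 ± 0.14, edgeR adjusted p = 0.00370), Mrps34 (1.12 ± 0.24, 0.00393), Mrpl49 (0.69 ± 0.17, 0.0102), Mrpl28 (0.64 ± 0.16, 0.0129), Mrpl48 (0.50 ± 0.14, 0.0210) and Mrps25 (1.78 ± 0.51, 0.0248), and 4 further genes, Mrpl20, Mrps24, Mrpl23 and Mrps14. Mrpl28, with a bacterial counterpart, had 32.6, 28.3, 35.9 and 35.1 CPM in HFD males, against 13.6, 28.4, 22.3 and 20.1 CPM in HFD females, where HFD female 2 overlapped the males. Mrpl49, found only in mitochondria, had 18.8, 21.8, 25.5 and 23.6 CPM in HFD males, against 15.96, 16.6, 9.19 and 13.8 CPM in HFD females, without overlap. In the fit of these 8 libraries alone 0 of the 77 genes were called, where 0.37% of all genes were in either direction, and 25 had an unadjusted p under 0.05 over all libraries, where 23.1% of all genes did. DESeq2 called 13, where it called 14.5% of all genes, and quality weights 0, where 0.161% were. The number of calls was 21 and 16 without HFD females 2 and 3 and 5 and 4 without HFD males 2 and 3. Mrpl48 was lost without HFD female 4, HFD male 2 or HFD male 3, and Mrps25 without HFD male 3 (adjusted p = 0.05 to 0.0789).

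With ND no gene was called between males and females by edgeR, where 0.598% of all genes were in either direction, and Mrpl50 alone had an unadjusted p under 0.05, where 5.69% of all genes did. DESeq2 called 0, where it called 2.61% of all genes, and quality weights 2, where 8.24% were. The median was -0.10. For Mrpl50, the ND male values of 13.8 to 17.2 CPM lay below the ND female values of 19.4 to 24.5 CPM (-0.43 ± 0.15, edgeR adjusted p = 0.312, and 0.0465 in the ND libraries alone). With LPD no gene was called by edgeR, where 0.27% of all genes were in either direction, and 4 had an unadjusted p under 0.05, where 5.3% of all genes did. DESeq2 called 0, where it called 0.623% of all genes, and quality weights 8, where 10.1% were. The median was 0.12. By ranges, 8 genes had every LPD male library above every LPD female library (Mrpl13, Mrpl49, Mrpl57, Mrps14, Mrps16, Mrps21, Mrps26 and Mrps28), where 3.02% of all genes did. The reverse held for 1, Mrps22, where 3.67% of all genes did.

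Other genes of mitochondrial translation were read beside the ribosomal proteins, from lists of known members. For HFD against ND in males, the 5 mitochondrial ribosomal proteins with other names (Dap3, Ptcd3, Aurkaip1, Chchd1 and Gadd45gip1) had a median log2 fold change of 0.29. Of these, 0 were called over all libraries and 2 in males alone, where 7.36% of all genes were called higher and 7.18% lower. Assembly factors of the mitochondrial ribosome (20 genes) had a median of 0.21, mitochondrial transcription genes (16) 0.09, translation factors (15) 0.06 and mitochondrial aminoacyl-tRNA synthetases (20) 0.04, with 0 called in each. The 10 tested protein genes of the mitochondrial genome had a median of 0.07, also with 0 called. Cytosolic ribosomal protein genes (80 tested), which encode the ribosome of the cytosol, had a median of 0.30. This median equalled that of the 77 mitochondrial ribosomal protein genes to 2 decimals. Over all libraries 4 cytosolic genes were called higher and 1 lower, where 0.577% of all genes were called higher. In males alone 32 were called higher and 1 lower, where 7.36% of all genes were called higher and 7.18% lower.

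For HFD against ND in females the cytosolic ribosomal protein genes had a median of -0.13, with 16 called lower and 0 higher. In this comparison 7.35% of all genes were called lower and 1.98% higher, which are the shares for the next lists too. Translation factors had a median of -0.22 with 1 called lower, assembly factors -0.16 with 1 called lower, aminoacyl-tRNA synthetases 0.18 and transcription genes 0.00 with 0 called in each. The 5 ribosomal proteins with other names had a median of -0.26 with 0 called, and the mitochondrially encoded genes 0.11 with 1 called lower. For LPD against ND in females 7 cytosolic ribosomal protein genes were called lower, where 0.307% of all genes were called in either direction. Their median was -0.22, while the mitochondrially encoded genes had a median of 0.31 with 0 called. No test compared one list with another.

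The 77 genes lie on 17 chromosomes, 11 of them on chromosome 11, and many have a close neighbour. By the GENCODE annotation, 33 have a protein-coding gene on the opposite strand that starts within 1000 bases, among them Mrpl51 (Ncapd2, 100 bases), Mrpl57 (Ska3, 49 bases), Mrps34 (Eme2, 29 bases) and Mrpl44 (Wdfy1, 125 bases). Mrps11 and Mrpl46 face each other. Exons of 27 overlap exons of a gene on the opposite strand. Exons of 7 (Mrpl3, Mrpl33, Mrpl51, Mrps6, Mrps18c, Mrps24 and Mrps34) overlap a gene on the same strand. Libraries were strand-specific, but the strand setting of the counting is not given. Counts of the genes in both sets may thus hold reads of their neighbours. The 4 pseudogenes with Mrp names in the table had at most 23 counts in any library.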

How the data were processed

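Sorted β cells of 24 samples in 6 groups of 4 were measured by RNA sequencing. The deposited table held read counts per gene, not normalized, and FPKM, which the authors computed from counts and gene length. Per the submitters' processing notes, cutadapt 2.10, STAR 2.7.8a, HOMER, DESeq2 and genome build GRCm38.p6 were used. For the counter, the annotation release and the strand setting, the entry is: not given in the sources used here. Recomputed FPKM matched the deposited values within 5e-04.

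Columns were matched to samples by their names, and 0 columns had no sample. Library totals were 12433228 to 26375565 counts (median 20719858). Depth limits low genes most in the shallowest libraries, HFD females 1 and 4, with 12782173 and 12433228 counts. HFD females 2 and 3 had 23676048 and 20174165 counts.

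Counts of 19235 genes that passed filterByExpr were scaled by TMM and fitted with group means over all 24 libraries by the quasi-likelihood F test of edgeR 4.0.16 (R 4.3.3), with Benjamini-Hochberg adjustment over all genes and a threshold of 0.05. In this fit all groups share an estimate of the spread of each gene. CPM are counts scaled to a common library size after TMM, and summed levels are scaled to the library total. Ratios in the plot of spread used an offset of 0.5 CPM. Fitting steps were tested on simulated data in which each gene had the same spread in all groups. Such data cannot show how the fit behaves with the wider spread of the HFD females. Alternatives were size factors by relative log expression, all genes with at least 1 count, the compared groups alone, DESeq2 1.42.0, voom with quality weights and limma-trend on log2 FPKM plus 1 or 0.1 (limma 3.58.1), the replicate number as a block, groups by library number, each library left out, HFD females 1 and 4 left out and, chosen after seeing the data, all HFD females left out.

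Genes named were, per comparison and direction, up to 6 called genes with the smallest p, the highest and lowest gene by mean FPKM in each subunit, and Mrpl3, Mrpl10, Mrpl11, Mrpl12, Mrpl44, Mrpl58, Mrps6, Mrps12, Mrps22, Mrps34 and Mrps36. Other genes named were chosen after their values were seen. The genes and lists were chosen with earlier results of these data known. Plots were drawn with Python 3.11.15 and matplotlib 3.10.9.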

Additional observations from a re-analysis of the deposited data

Results flagged for a closer look

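In sets of 4 libraries, a single library was taken to stand apart where its gap to the nearest of the others exceeded Dixon's critical share of the range, which chance does in about 1 of 20 sets. Of 156 sets examined, 11 had such a library, 3 of them in HFD females. Mrpl44 had 38.6 CPM in HFD female 1, against 17.3 to 18.9 CPM in the other HFD females, and Mrpl50 had 24.9 CPM in the same library, against 17.1 to 18.3 CPM. Mrps30 had 3.94 CPM in HFD female 2, against 7.91 to 8.44 CPM. In HFD males, Mrpl3 had 23.9 CPM in library 1, against 17.9 to 18.4 CPM.

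In LPD females, library 1 was high for Mrpl51 at 24.5 CPM (19.6 to 20.4 CPM in the others), Mrps30 at 8.42 CPM (6.14 to 6.37 CPM) and Mrps34 at 18.7 CPM (13.3 to 13.9 CPM). LPD female 4 was low for Mrps12 at 22.9 CPM (29.6 to 30.1 CPM) and for the summed small subunit at 342 CPM (371 to 374 CPM), and LPD female 3 for Mrpl49 at 13.5 CPM (17.4 to 18.1 CPM). In ND females, Mrpl11 had 11.8 CPM in library 2, against 14.99 to 15.5 CPM.

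By the test of the difference itself (edgeR, 24 libraries), the effect of HFD was called different between males and females in 4 genes, where 3% of all genes were called higher. The log2 differences, males minus females, were 1.21 for Mrps34, 0.85 for Mrpl51, 0.76 for Mrpl50 and 0.73 for Mrpl48. With the compared groups alone, Mrpl51 was the only one of them still called, and with quality weights none of the 4 was. Mrpl48, Mrpl50 and Mrps34 also lost the call when certain single libraries were left out.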

How the results depend on the processing

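Numbers of called genes differed between settings. In this section they stand without the share of all genes called, which changes with the setting as well. They are not read as a result about the ribosomal protein genes. With the compared groups alone, HFD against ND gave 1 call over both sexes, 0 in females, 28 in males and 1 for males minus females, LPD against ND in females 1, HFD against LPD 0 in females and 1 in males, and males against females 1 in ND and 0 in HFD. With quality weights the HFD against ND counts were 1, 0, 40 and 0 in the same order, those of LPD against ND 4 over both sexes, 3 in females, 3 in males and 4 for males minus females, those of HFD against LPD 1, 0 in females and 21 in males, and those of males against females 2 in ND, 0 in HFD and 8 in LPD. DESeq2 gave 2 for HFD against ND in males, 1 for LPD against ND in females, and 9 over both sexes and 8 in females for HFD against LPD. All genes with at least 1 count gave 0 for HFD against ND in males and 1 for its difference between sexes. On log2 FPKM plus 0.1, HFD against ND in females gave 8 and HFD against LPD over both sexes 5. On log2 FPKM plus 1, the difference between sexes gave 2, and the HFD median of males against females was 0.22.

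Without HFD females 1 and 4, HFD against ND gave 7 over both sexes, 4 in males and 8 for males minus females, LPD against ND in females 1, and HFD against LPD 12 over both sexes and 5 in males. Without all HFD females, HFD against ND in males gave 11, LPD against ND 2 over both sexes and 1 in females, HFD against LPD in males 10 and males against females in ND 1. Leaving out 1 library at a time gave 1 to 6 calls for HFD against ND over both sexes, 2 to 14 in females, 0 to 1 in males and 1 to 9 for males minus females, 0 to 1 for LPD against ND in females, 3 to 9, 2 to 13 and 0 to 1 for HFD against LPD over both sexes, in females and in males, and 4 to 21 for males against females in HFD.

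The replicate block gave 0 for HFD against ND in males and 2 for males minus females. The correlations of 60 same-numbered pairs were -0.097 to 0.158, 1 of them above 0.1, and 6 of 24 libraries were closest to their own number. These values cannot show whether equal numbers share a litter or batch, which the labels do not name.

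Groups were also taken from the library numbers. These name the HFD columns ND, the LPD columns HFD and the ND columns LPD of the other sex. HFD against ND by number is therefore HFD against LPD by column names with its sign turned. HFD against ND then gave 0 calls in males and 0 for males minus females, with medians of -0.14 over both sexes, -0.23 in males and -0.23 for the difference. LPD against ND gave 3, 5, 1 and 1 calls over both sexes, in females, in males and for males minus females, with medians of 0.042, -0.19 and -0.27 in females, in males and for the difference. HFD against LPD gave 0 over both sexes and 0 in females, with medians of -0.065, -0.096 and -0.054 over both sexes, in females and in males. Males against females gave 10 in ND and 0 in HFD, with medians of 0.37 and 0.12. Directions turned for HFD against ND over both sexes in Mrpl15 (-0.74), Mrpl57 (-0.43) and Mrps18a (-0.51), in males in Mrpl50 (-0.39), and in females in Mrpl15 (-0.99), Mrpl44 (-0.76), Mrpl48 (0.25), Mrpl51 (0.24), Mrpl57 (-0.59), Mrps18a (-0.69), Mrps25 (1.28) and Mrps34 (0.49). They also turned for males minus females in Mrpl48 (-0.52), Mrpl50 (-0.21), Mrpl51 (-0.32) and Mrps34 (-0.81), for LPD against ND in females in Mrps34 (0.83), for HFD against LPD over both sexes in Mrpl15 (-0.22), Mrpl57 (-0.055) and Mrps18a (-0.013) and in females in Mrpl15 (-0.21), Mrpl44 (-0.087) and Mrpl57 (-0.36), and for males against females in HFD in Mrpl48 (-0.024) and Mrps25 (-0.31). These values set other columns against each other under the same group names, and diet cannot be checked from the counts. Of the results of named genes, 2569 kept their direction and side of the threshold without single libraries, 109 lost and 10 gained a call, and under other settings 1038 kept it, 80 lost and 37 gained a call and 25 turned.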
